A study of Mus musculus with 24 samples.

Results

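The transcripts of 9 enzymes that dispose of superoxide and peroxides were followed in RNA from the inner medulla of the mouse kidney, with and without cisplatin. They were the superoxide dismutases Sod1, Sod2 and Sod3, catalase (Cat), the glutathione peroxidases Gpx1, Gpx2 and Gpx3, and the peroxiredoxins Prdx1 and Prdx6. The members were named as a list of enzymes and not by a threshold on their values, and they are 9 of the 55416 gene identifiers counted. All 9 passed the filter on low counts, which left 18005 genes for testing.

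All mice were C57BL/6, a common inbred strain, and were 9 to 10 weeks old at injection. Each received a single intraperitoneal injection of 100 µl, either saline alone or with 15 mg/kg of cisplatin, and tissue was taken after 72 h. Cisplatin, a platinum compound given against cancer, injures kidney tubules. The 24 libraries of poly(A)-selected RNA came from 6 males given saline and 6 given cisplatin, and from 7 females given saline and 5 given cisplatin. The labels name no transgene or deletion. They do not say that each library came from 1 mouse, so p-values measure only the spread between these libraries.

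Superoxide is a by-product of respiration and of dedicated oxidases, and superoxide dismutases turn it into hydrogen peroxide: SOD1 in the cytosol, SOD2 in the mitochondrial matrix and SOD3 outside the cell. Hydrogen peroxide is then removed by catalase in peroxisomes, by glutathione peroxidases at the expense of glutathione, and by peroxiredoxins, most of which draw on thioredoxin. GPX1 is cytosolic and mitochondrial, GPX2 is an epithelial form best known from the gut, and GPX3 is secreted into plasma mainly by the kidney. PRDX1 is a cytosolic 2-cysteine peroxiredoxin, and PRDX6 is a 1-cysteine form that also acts on phospholipids. The collecting ducts and thin limbs of the inner medulla work at low oxygen and high osmolality.

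GPX1, GPX2 and GPX3 share a feature that their family relative GPX4 also has: the catalytic residue is selenocysteine, encoded by a TGA triplet that would otherwise stop translation. The coding stretches around that triplet are shown because this shared codon ties the 3 members to the genes of selenium supply described further on. In the reference transcripts (GENCODE M21, build GRCm38) exactly 1 in-frame TGA lay inside each coding sequence, at codon 47 of 201 in Gpx1 (chromosome 9), codon 40 of 190 in Gpx2 (chromosome 12), codon 73 of 226 in Gpx3 (chromosome 11) and codon 73 of 197 in Gpx4 (chromosome 10). Each line gives 39 bases of coding sequence, 5′ to 3′, with the TGA in capitals.
Gpx1: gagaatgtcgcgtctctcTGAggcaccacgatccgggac
Gpx2: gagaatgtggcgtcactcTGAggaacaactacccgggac
Gpx3: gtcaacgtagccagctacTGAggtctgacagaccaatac
Gpx4: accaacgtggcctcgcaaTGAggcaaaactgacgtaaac
Gpx1 and Gpx2 were alike at 33 of the 39 bases, while Gpx3 matched either of them at 19. Gpx4 matched Gpx1 at 21 and Gpx2 and Gpx3 at 23 each. The principal transcripts of Gpx6, Gpx7 and Gpx8 held 0 such triplets in frame.

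The libraries held 18084242 to 27279102 counts each. Summed markers of collecting duct principal cells lay at 5134 to 11249 CPM (counts scaled to a common library total, with TMM factors) and those of thin limbs at 2597 to 4623 CPM. Both sets of markers were thus present in all 24 libraries, which does not by itself show that the tissue was inner medulla alone. Thick ascending limb markers, which belong to the outer medulla and cortex, ranged from 937 to 13922 CPM, and proximal tubule markers from 102 to 1145 CPM. The library labelled male cisplatin 5 stood apart: 6.30% of its counts were in ribosomal protein genes, against 2.60% to 3.61% in the other 5 male cisplatin and 2.39% to 2.53% in the male saline libraries. Its counts in mitochondrial genes were the lowest of the 24, at 2.29%. Its summed urothelium markers stood at 1704 CPM, against 382 to 870 CPM in the other 23 libraries, and its proximal tubule markers were the highest of the 24, at 1145 CPM, against 102 to 987. Below, a change of a gene's male call without this library is stated for the members and for the related genes selected by adjusted p.

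Under saline, compared per kilobase of the principal transcript, Sod1 had the highest level of the 9 in males at 471 ± 41.9 CPM per kb (SD, n = 6). Gpx1 followed at 250 ± 15.5 and Gpx3 at 213 ± 41.1, and Gpx1 and Gpx3 overlapped within their SD. Prdx1 stood at 138 ± 5.72, Prdx6 at 54.8 ± 4.19, Cat at 45.5 ± 3.73 and Sod2 at 29.0 ± 4.61 CPM per kb. Sod3 was lower at 5.23 ± 1.40 and Gpx2 lowest at 0.385 ± 0.225 CPM per kb. The place of Sod1 depends on the length used, since its principal transcript has 641 bases and its merged exons 3970: by merged exons it fell to 76.1 CPM per kb and the fourth place, behind Gpx3 (187), Gpx1 (186) and Prdx1 (104). Female saline libraries had the same order by principal transcript, from Sod1 at 502 ± 58.8 (n = 7) to Gpx2 at 0.259 ± 0.115 CPM per kb.

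**Figure D1:**
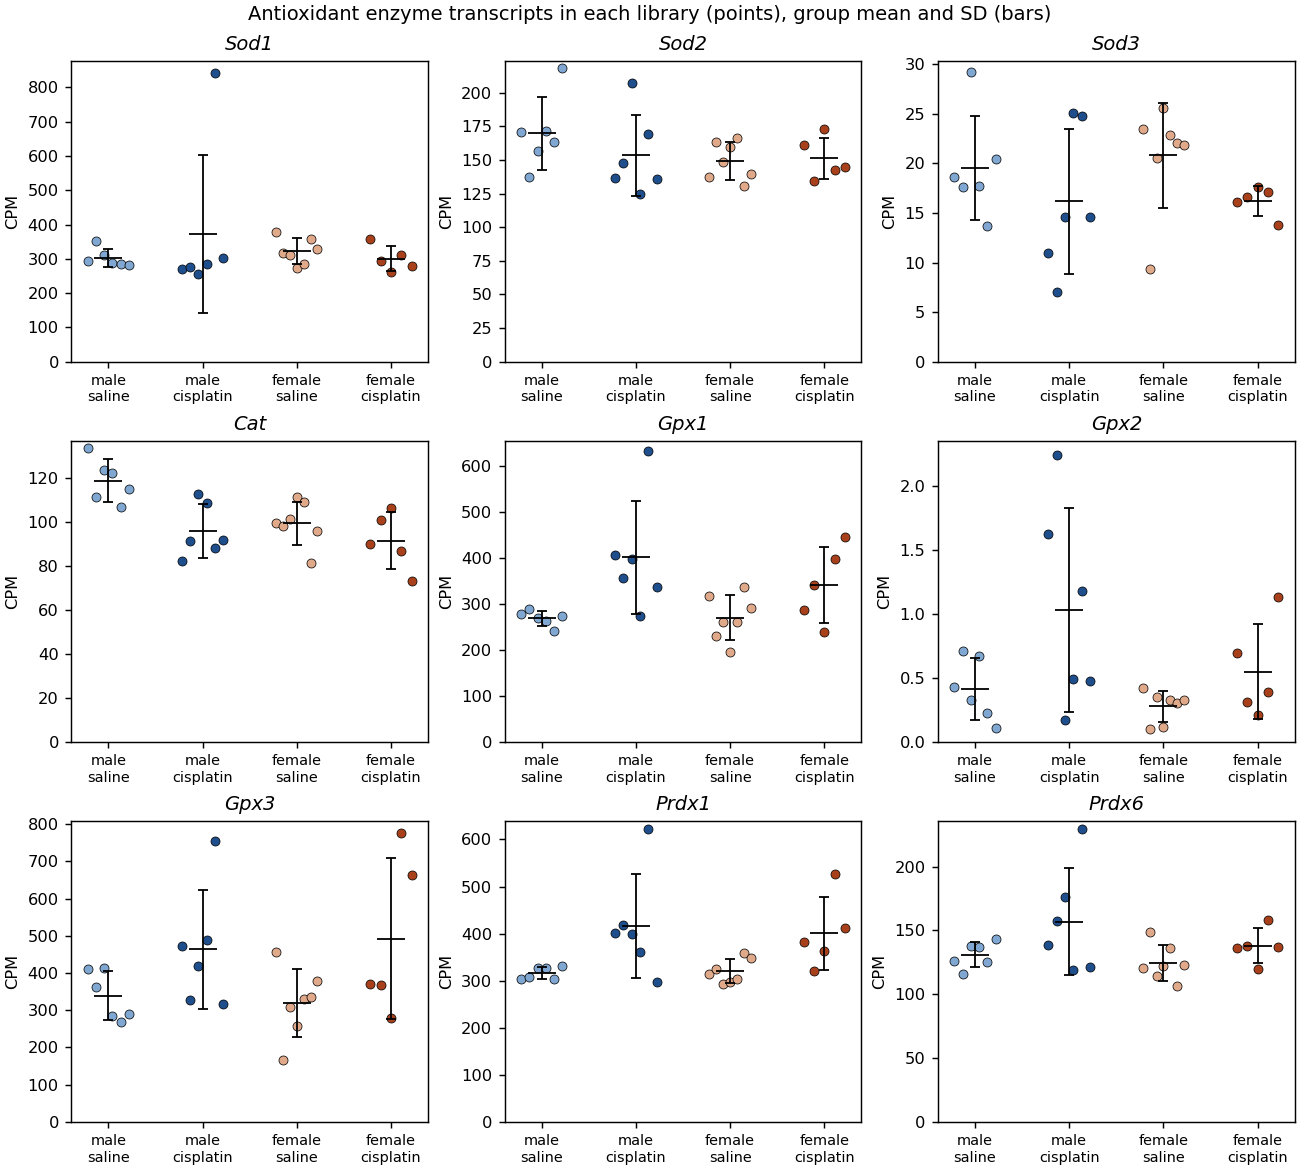
Level of each of the 9 transcripts in CPM (vertical axis, starting at 0 and scaled separately in each panel) in the 24 libraries (points), by group, with the group mean and SD (bars). In the Sod1, Gpx1 and Prdx1 panels the highest male cisplatin point is the same library, at 842, 631 and 622 CPM.

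Between male cisplatin and male saline, peroxide-removing enzymes differed in both directions. Gpx1 and Prdx1 rose, Cat fell, and Gpx2, Gpx3, Prdx6 and the superoxide dismutases did not pass the test. The count was 3 of 9 at an edgeR adjusted p under 0.05 (Benjamini-Hochberg over all tested genes), with 2 higher and 1 lower. Over all tested genes 20.7% passed, 13.2% higher and 7.54% lower, so that with 9 members a count of 3 does not set the list apart. The median log2 fold change of the 9 was 0.30, beside 0.02 over all genes. That median was the value of Sod1, and without the male cisplatin library that stood apart Sod1 was at -0.13. The median of the 9 without that library was not calculated. None of the 9 had groups that did not overlap, which 5.93% of all genes had.

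Gpx1 (chr9:108338903-108340343, plus strand, GRCm38), the most abundant glutathione peroxidase of most cells, ranged from 239 to 289 CPM in male saline with a median of 270 CPM. Male cisplatin libraries ranged from 274 to 631 with a median of 376 CPM. The saline libraries were tight, and 5 of the 6 cisplatin libraries lay above all of them, with 1 inside their range. The mean rose from 268 ± 16.6 to 400.1 ± 123 CPM (SD, n = 6 each), a fitted 1.49-fold difference (log2 0.58 ± 0.17 SE, 95% interval 0.23 to 0.92, edgeR adjusted p = 0.0185). Without male cisplatin 5, the log2 fold change was 0.39 with an adjusted p of 0.0626. Leaving out any other male library kept the call, so 11 of 12 such fits passed.

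Prdx1 (chr4:116685544-116700822, plus strand) was the most even transcript of the list in male saline, with a lowest value of 303, a median of 318 and a highest value of 331 CPM. In male cisplatin the lowest value was 296, the median 400.2 and the highest 622 CPM. Again 5 of 6 cisplatin libraries lay above the whole saline range, but the remaining one, male cisplatin 6, lay just below it, so the groups overlapped. Means were 317 ± 13.1 and 416 ± 110.1 CPM (SD, n = 6 each), which is a log2 difference of 0.39 ± 0.13 (interval 0.13 to 0.66, edgeR adjusted p = 0.0346). This call was the least firm of the 3: it held in 4 of 12 fits with 1 male library left out, those without male saline 6 or male cisplatin 1, 4 or 6. Without male cisplatin 5 the log2 fold change was 0.23 (adjusted p = 0.116).

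The Prdx1 and Sod1 promoters are shown because, of the 7 members searched, theirs hold the core of the antioxidant response element, TGACNNNGC. This is the sequence that the transcription factor NRF2 (Nfe2l2) is known to bind with a small MAF partner. Both strands of the 250 bases before each RefSeq start were searched (build GRCm38.p6). The core occurred in 10.2% of the 32851 promoters, and in 2 of the 7 members whose promoter was in the table. No promoter sequence was at hand for Sod3 and Prdx6, so these were not searched. The match, in capitals, reads as the reverse complement of the core and begins 133 bases before the start in Prdx1 and 56 bases before it in Sod1. In Prdx1 it overlaps the AP-1 consensus TGAGTCA. The stretches are chr4:116685349-116685543 and chr16:90220512-90220753, plus strand, up to the annotated gene.
Prdx1: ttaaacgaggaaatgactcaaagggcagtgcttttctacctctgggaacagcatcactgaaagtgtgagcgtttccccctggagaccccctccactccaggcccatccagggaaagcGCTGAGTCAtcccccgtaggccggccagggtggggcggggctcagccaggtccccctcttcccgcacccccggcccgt
Sod1: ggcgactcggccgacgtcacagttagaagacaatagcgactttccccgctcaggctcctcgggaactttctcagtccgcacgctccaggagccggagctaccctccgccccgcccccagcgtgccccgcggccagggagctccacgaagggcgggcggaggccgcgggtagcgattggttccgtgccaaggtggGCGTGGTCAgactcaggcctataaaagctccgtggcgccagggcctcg
A match is a description of these letters only. Prdx1 passed the test in males, and Sod1, with the same core, did not.

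Cat (chr2:103453849-103485160, minus strand), the heme enzyme of peroxisomes, moved the other way. Male saline libraries ranged from 107 to 134 CPM with a median of 119, and male cisplatin libraries from 82.3 to 113 CPM with a median of 91.7. Cisplatin libraries were low, with 4 of 6 below the whole saline range and 2 inside it. The mean fell from 119 ± 9.74 to 96.0 ± 12.1 CPM (SD, n = 6 each), which is a log2 difference of -0.31 ± 0.10 (interval -0.51 to -0.11, edgeR adjusted p = 0.0269). Without male cisplatin 5 the adjusted p was 0.0460. The call held in 8 of 12 such fits and was lost without male saline 1 (0.0654) or 4 (0.0515), or without male cisplatin 1 (0.0596) or 2 (0.0569).

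**Figure D2:**
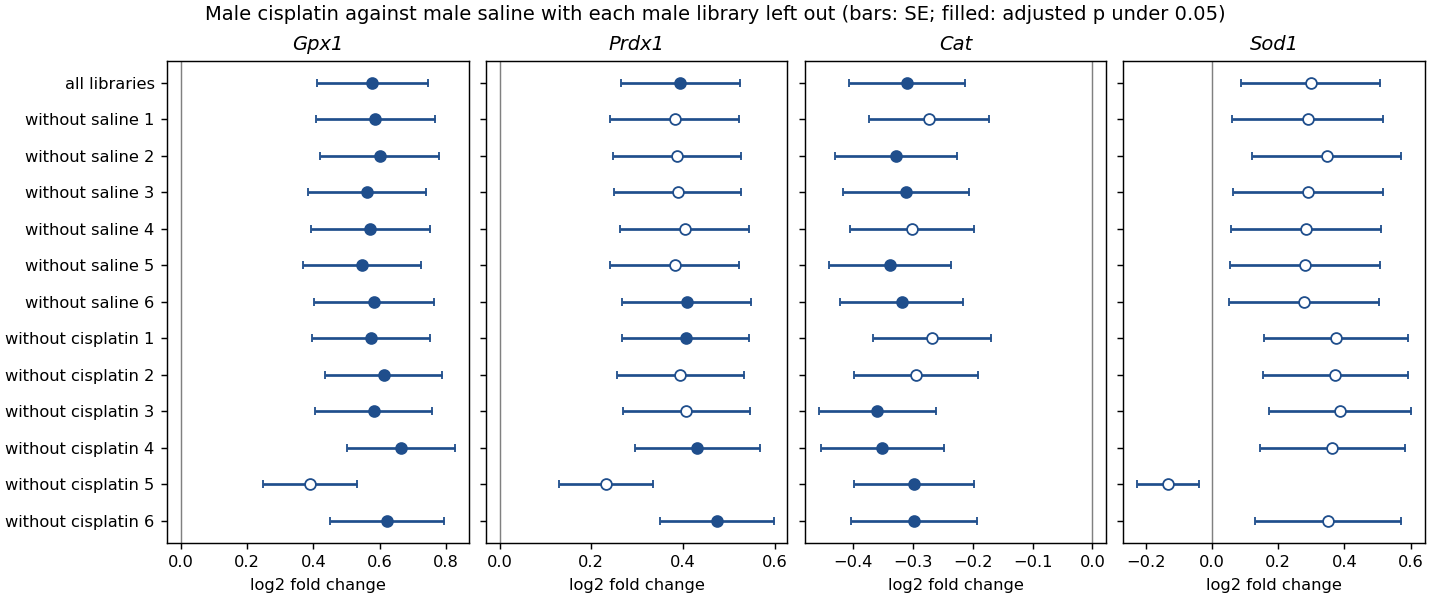
Log2 fold change of Gpx1, Prdx1, Cat and Sod1 in male cisplatin against male saline (horizontal axis, bars are the SE) with all libraries and with each of the 12 male libraries left out (rows); filled points have an adjusted p under 0.05. Leaving out male cisplatin 5 moves Gpx1 from 0.58 to 0.39, Prdx1 from 0.39 to 0.23 and Sod1 from 0.30 to -0.13, while Cat stays close to -0.30.

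Gpx3 (chr11:54902453-54910377, plus strand), the secreted form, ranged from 269 to 414 CPM in male saline (median 327) and from 318 to 754 CPM in male cisplatin (median 445). The highest value was in male cisplatin 5, and 4 of 6 cisplatin libraries lay above the saline range. It did not pass, at 0.45 ± 0.25 on the log2 scale (interval -0.06 to 0.96, edgeR adjusted p = 0.191), and at 0.25 (0.497) without male cisplatin 5. Prdx6 (chr1:161240112-161251219, minus strand) went from 116 to 143 CPM in saline (median 131) to 119 to 229 CPM in cisplatin (median 148). Here 3 of 6 cisplatin libraries lay above the saline range, and the difference of 0.26 ± 0.12 on the log2 scale did not pass (adjusted p = 0.135). Without male cisplatin 5 it was 0.11 (adjusted p = 0.469).

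Gpx2 (chr12:76792333-76795554, minus strand) was close to the limit of detection, with 299 counts in all 24 libraries. Male saline libraries held 2 to 18 counts (0.105 to 0.706 CPM, median 0.377) and male cisplatin libraries 3 to 48 counts (0.166 to 2.24 CPM, median 0.834). The cisplatin values were widely scattered, with 3 of 6 above the saline range. Its log2 fold change of 1.29 ± 0.52 was the largest of the 9 in size and did not pass (edgeR adjusted p = 0.0754). It passed without male cisplatin 3 (1.5, 0.0404) or 6 (1.44, 0.0415). Its span overlaps Fntb, on the opposite strand and with 10130 counts, and no source used here says whether counting used the strand, so these few reads cannot be told apart from Fntb reads.

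The superoxide dismutases did not pass in males. Sod1 (chr16:90220754-90226329, plus strand) ranged from 282 to 353 CPM in male saline (median 291). Of the male cisplatin libraries, 5 lay between 256 and 301 CPM, and male cisplatin 5 alone stood at 842 CPM. That library turned the sign of the estimate: the log2 fold change was 0.30 ± 0.21 with it (edgeR adjusted p = 0.318) and -0.13 without it (adjusted p = 0.323). Sod1 overlaps Scaf4 on the opposite strand, which had 30709 counts against its 175485.

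Sod2 (chr17:13006846-13040063, plus strand), the mitochondrial manganese enzyme, had a male saline range of 137 to 219 CPM (median 167) and a male cisplatin range of 125 to 207 CPM (median 142). In cisplatin 3 of 6 libraries lay below the saline range, with a log2 fold change of -0.15 ± 0.12 (interval -0.38 to 0.09, edgeR adjusted p = 0.376). Sod3 (chr5:52363791-52371418, plus strand), the secreted copper and zinc enzyme, ranged from 13.7 to 29.2 CPM in saline (median 18.1) and from 7.01 to 25.1 CPM in cisplatin (median 14.6). Its log2 fold change was -0.27 ± 0.25 (interval -0.79 to 0.24, adjusted p = 0.444). The intervals of all 3 dismutases span 0, and each includes a change as large as that of Cat in at least 1 direction.

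In males, Gpx1, Gpx3 and Prdx1 were all highest in male cisplatin 5, the library with the highest share of ribosomal protein transcripts. Gpx3 did not follow the share throughout. Female saline 2, at 2.82%, had the lowest Gpx3 value of the 24 libraries (165 CPM). Male cisplatin 3, at 3.61%, had less Gpx3 (418 CPM) than male cisplatin 4, at 2.92% (489 CPM). In females the libraries with the highest such shares were female cisplatin 4 (4.28%) and 5 (3.91%), and these were also the 2 highest of the 12 female libraries for Gpx1 (397 and 444 CPM), Gpx3 (778 and 664 CPM) and Prdx1 (526 and 412 CPM). With the log2 ribosomal protein share as a covariate, an alternative chosen after seeing the data, 0 of the 9 members passed in males. In that fit the log2 fold change of Prdx1 was -0.0048 (edgeR adjusted p = 0.985), of Gpx1 0.12 (0.685) and of Cat -0.19 (0.407). The share itself was higher in every male cisplatin than in any male saline library, so the covariate takes up part of the treatment contrast. The genes called over the whole table fell from 3731 to 117 in the same fit. The part of library composition in these results cannot be told apart from the treatment with these samples.

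**Figure D3:**
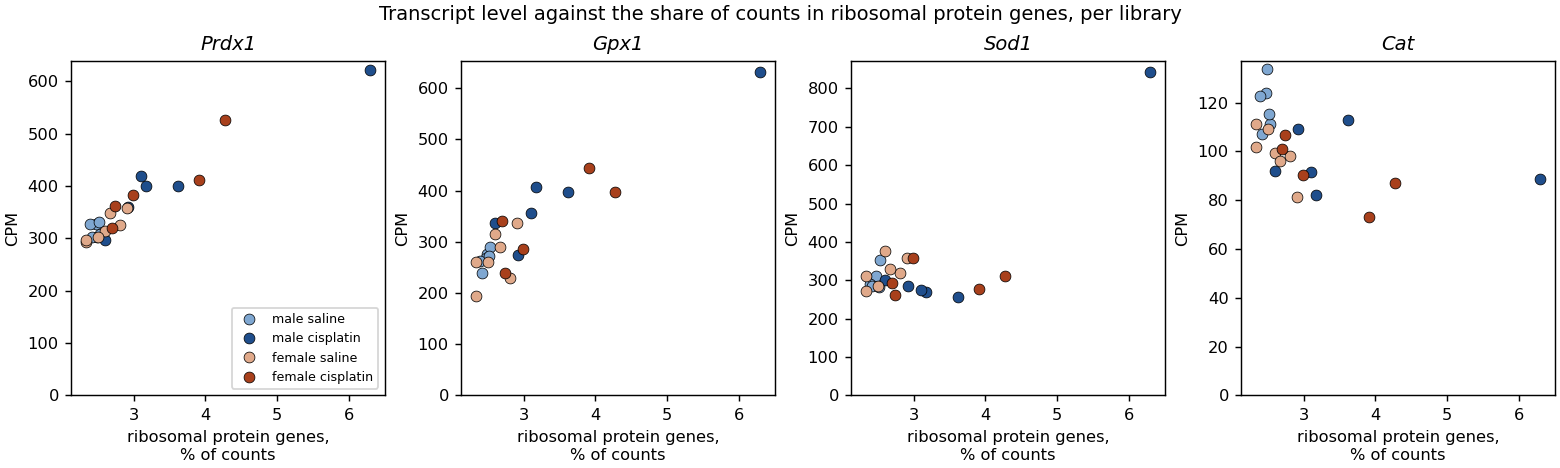
Level of Prdx1, Gpx1, Sod1 and Cat in CPM (vertical axis, starting at 0) against the percentage of counts in ribosomal protein genes (horizontal axis) in the 24 libraries, coloured by group. The point at 6.30% is male cisplatin 5; the 2 highest female points, at 4.28% and 3.91%, are female cisplatin 4 and 5.

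In females 0 of 9 members passed, where 0.272% of all genes did (49 genes). With an unadjusted edgeR p under 0.05 there were 2 of 9 members, Prdx1 and Gpx3, beside 14.8% of all genes, and DESeq2 also called 0. Prdx1 stood at 292 to 359 CPM in female saline (median 315) and at 382, 320, 363, 526 and 412 CPM in the 5 female cisplatin libraries. Of these, 4 lay above all 7 saline libraries. The log2 fold change was 0.32 ± 0.13 (interval 0.05 to 0.60, edgeR adjusted p = 0.265), beside 0.39 in males. Without female cisplatin 4 it was 0.21 (0.777), and the male value without male cisplatin 5 was 0.23.

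Gpx3 in females went from 165 to 457 CPM under saline (median 331) to 371, 368, 278, 778 and 664 CPM after cisplatin. Only female cisplatin 4 and 5 lay above the saline range, with a log2 fold change of 0.62 ± 0.25 (interval 0.11 to 1.14, edgeR adjusted p = 0.263), or 0.40 (0.777) without female cisplatin 4. Gpx1 ranged from 195 to 336 CPM in female saline (median 260), and the cisplatin libraries held 285, 340, 239, 397 and 444 CPM. That is 3 of 5 above the saline range, with a log2 fold change of 0.34 ± 0.17 (adjusted p = 0.348), or 0.22 (0.714) without female cisplatin 5.

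Cat ranged from 81.5 to 111 CPM in female saline (median 99.5) and stood at 90.2, 101, 107, 87.1 and 73.1 CPM after cisplatin. Only the lowest of these, female cisplatin 5, lay outside the saline range, and the log2 fold change was -0.12 ± 0.10 (interval -0.32 to 0.08, edgeR adjusted p = 0.579). Prdx6 stood at 136, 138, 120, 158 and 137 CPM after cisplatin, beside 106 to 149 CPM under saline (median 122), with a log2 fold change of 0.15 ± 0.13 (adjusted p = 0.592).

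For the dismutases in females, Sod1 was at 357, 294, 261, 312 and 278 CPM after cisplatin and at 272 to 377 CPM under saline (median 318). Sod2 was at 161, 134, 173, 143 and 145 CPM after cisplatin and at 130 to 167 CPM under saline (median 148). Sod3 was at 16.1, 16.6, 17.6, 17.1 and 13.8 CPM after cisplatin and at 9.35 to 25.6 CPM under saline (median 22.1). Groups overlapped for all 3, and the Sod3 values after cisplatin were all inside the saline range. The log2 fold changes were -0.10 ± 0.21 for Sod1, 0.02 ± 0.12 for Sod2 and -0.36 ± 0.25 for Sod3 (edgeR adjusted p = 0.855, 0.960 and 0.513). Gpx2 had 4 to 27 counts per female cisplatin library and 2 to 10 per female saline library (log2 fold change 0.98 ± 0.55, adjusted p = 0.403).

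**Figure D4:**
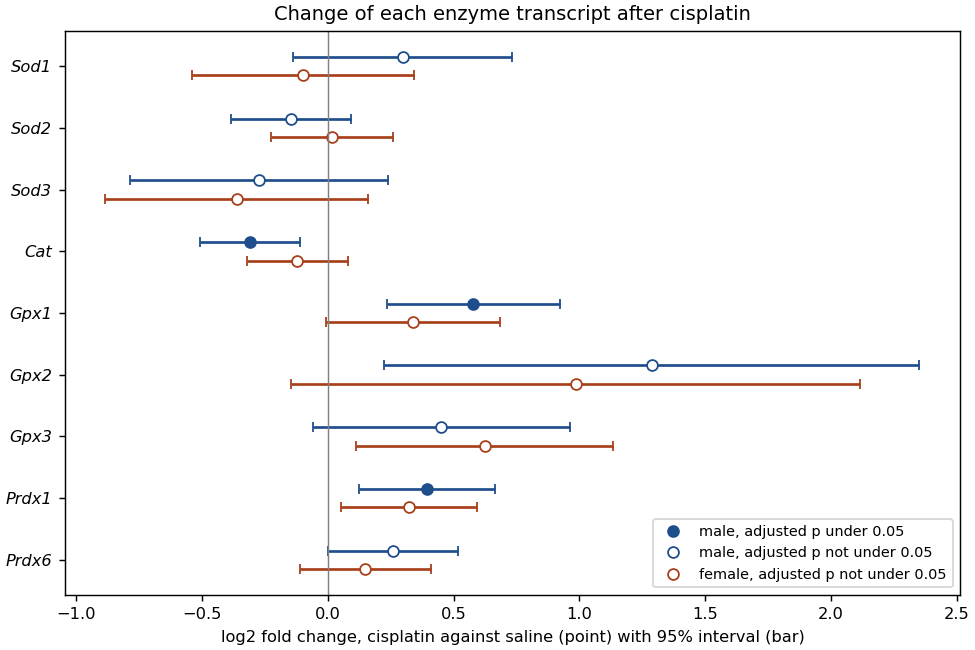
Log2 fold change of each member, cisplatin against saline (horizontal axis), with its 95% interval (bars) in males and females; filled points have an adjusted p under 0.05. Gpx1 (0.58), Prdx1 (0.39) and Cat (-0.31) in males are the filled points, and the male and female intervals overlap for every gene.

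Whether cisplatin acted differently in the sexes was tested directly, as the female minus the male log2 fold change. This difference passed for 0 of 9 members and for 0 of 18005 genes. With an unadjusted edgeR p under 0.05 there were 0 members and 772 genes (4.29%). For the 3 genes that passed in males the difference was -0.24 ± 0.24 for Gpx1 (interval -0.73 to 0.25), -0.07 ± 0.18 for Prdx1 (interval -0.45 to 0.31) and 0.19 ± 0.14 for Cat (interval -0.09 to 0.47). Each interval spans 0 and also holds a sex difference as large as the male change itself. Sod1 was at -0.40 ± 0.30, and its difference turned to 0.03 without male cisplatin 5.

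Between the sexes at the same treatment, 0 of 9 members passed under saline (background 0.189%) and 0 of 9 under cisplatin (background 0.156%). Cat had the smallest p under saline. Of the 7 female saline libraries 5 lay below the male saline range, with means of 99.6 ± 9.81 (n = 7) and 119 ± 9.74 CPM (n = 6). The log2 difference was -0.26 ± 0.09 (interval -0.45 to -0.06), with an edgeR adjusted p of 1.00 and an unadjusted p of 0.0108. The female saline mean was thus close to the male cisplatin mean of 96.0 CPM. For Gpx1 and Prdx1 the sexes differed by 0.0081 and 0.01 on the log2 scale under saline.

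Other peroxidases of the same families were examined alongside. Of 9 genes in this group (Gpx4, Gpx6, Gpx7, Gpx8, Prdx2, Prdx3, Prdx4, Prdx5 and Ccs, the copper chaperone of SOD1), 3 rose in males and 0 fell, with a median log2 fold change of 0.37 beside 0.02 over all genes. Of all tested genes 13.2% were higher and 7.54% lower in males, and neither this list nor those below were tested against these shares. Prdx3, the peroxiredoxin of mitochondria, ranged from 91.6 to 112 CPM in male saline (median 107) and from 124 to 285 CPM in male cisplatin (median 222). The groups did not overlap, with a log2 fold change of 1.04 ± 0.17 (edgeR adjusted p = 0.000527), larger than any abundant member's.

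Prdx3 was also the single gene of the group that rose in females, where 0.272% of all genes passed. Female saline libraries ranged from 88.6 to 108 CPM (median 97.1), and the cisplatin libraries stood at 140, 131, 126, 223 and 234 CPM, all above them. A non-overlap of this kind was found for 0.85% of all genes in females and for 0 of the 9 members. The log2 fold change was 0.78 ± 0.17 (edgeR adjusted p = 0.0414), and the call held in 6 of 20 alternative fits, with log2 fold changes of 0.58 to 0.87 in all 20. Among fits with a library left out it held without female cisplatin 1, 2 or 3 (0.0261, 0.0210 and 0.0160). It was lost without female cisplatin 4 (0.67, 0.276) or 5 (0.64, 0.238), or any of the 7 female saline libraries (0.76 to 0.80, adjusted p = 0.0659 to 0.102). In males the call was kept in 19 of 20 alternatives and in all 12 fits that left out a male library, with 1.04 (adjusted p = 0.00104) without male cisplatin 5. It was not kept with the ribosomal protein share as a covariate (0.80, adjusted p = 0.0505).

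Gpx4, which reduces lipid peroxides in membranes, rose in males from 276 ± 15.7 to 424 ± 142 CPM (log2 fold change 0.62 ± 0.16, edgeR adjusted p = 0.0117), and stayed called without male cisplatin 5 (0.42, 0.0367) but not with the ribosomal protein covariate (0.093, 0.656). Prdx4, the peroxiredoxin of the endoplasmic reticulum, rose from 18.1 ± 2.20 to 25.6 ± 7.70 CPM (0.50 ± 0.16, adjusted p = 0.0300) and lost the call without that library (0.31, 0.108) or without male saline 3, 4, 5 or 6 (0.46 to 0.49, adjusted p = 0.0541 to 0.0635). Ccs had 29.3 ± 1.65 CPM in male saline and 40.1 ± 16.1 in male cisplatin and did not pass (adjusted p = 0.0517); it passed without male cisplatin 1, 4 or 6 (0.0248, 0.0418 and 0.0185) and was at 0.20 (0.216) without male cisplatin 5.

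**Figure D5:**
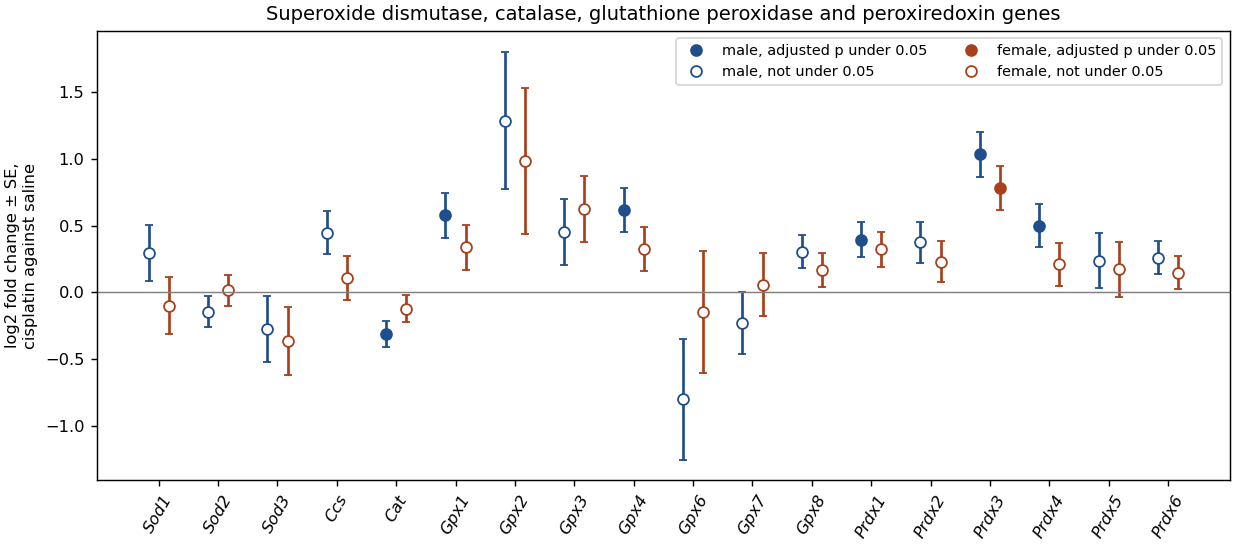
Log2 fold change ± SE, cisplatin against saline (vertical axis), of all superoxide dismutases, glutathione peroxidases and peroxiredoxins of the lists with catalase and Ccs (horizontal axis) in males and females; filled points have an adjusted p under 0.05. Prdx3 is the gene filled in both sexes, at 1.04 and 0.78.

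The glutathione and thioredoxin systems return these peroxidases to their reduced state. Of 20 such genes, 5 rose and 1 fell in males (median 0.22), beside 13.2% and 7.54% of all genes. In females 0 passed, beside 0.272% of all genes. Txn1, the thioredoxin that reduces PRDX1, rose from 180.1 ± 10.5 to 258 ± 68.3 CPM in males (log2 fold change 0.52 ± 0.12, edgeR adjusted p = 0.00614; 0.15 and 0.323 with the ribosomal protein covariate). Gsr, glutathione reductase, rose from 101 ± 6.46 to 141 ± 19.2 CPM (0.48 ± 0.12, adjusted p = 0.0107; 0.20 and 0.389 with that covariate). Pgd, a source of NADPH in the pentose phosphate pathway, rose from 118 ± 9.35 to 167 ± 27.8 CPM (0.51 ± 0.10, adjusted p = 0.00275; 0.36 and 0.140 with it). Srxn1, the sulfiredoxin that repairs overoxidised 2-cysteine peroxiredoxins, rose from 44.3 ± 3.20 to 75.7 ± 37.5 CPM (0.77 ± 0.23, adjusted p = 0.0229), a call lost without male cisplatin 2 (0.67, 0.0617) or 3 (0.54, 0.0849). The other 2 genes that passed, named after their values were seen, were thioredoxin reductase Txnrd1 (0.54) and glutaredoxin Glrx (-0.37).

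NRF2 is the transcription factor best known for driving several of these genes, and KEAP1 holds it in check. Of 7 regulators and sentinel targets, 3 rose and 0 fell in males, beside 13.2% and 7.54% of all genes. In females 0 passed, beside 0.272% of all genes. Slc7a11, the cystine importer that feeds glutathione synthesis, went from 0.105 to 0.460 CPM in male saline (median 0.296) to 0.458 to 17.7 CPM in male cisplatin (median 0.723). Most of its log2 fold change of 3.91 ± 1.06 (edgeR adjusted p = 0.0135) lay in a few libraries, since the cisplatin median was far below the cisplatin mean of 4.61 CPM, and without male cisplatin 1 it was 2.68 (0.0580). Keap1 rose by 0.27 ± 0.08 (adjusted p = 0.0229), except without male saline 4 (0.0531) or 5 (0.0588). The partner gene Mafg rose by 0.34 ± 0.11 (adjusted p = 0.0289), except without male saline 1, 2 or 3 or male cisplatin 1, 2 or 3 (adjusted p = 0.0523 to 0.0744). Hmox1, heme oxygenase, stood at 7.03 ± 1.60 and 16.3 ± 14.1 CPM and did not pass (adjusted p = 0.0505), except without male cisplatin 4, 5 or 6 (0.0234, 0.0428 and 0.0147).

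Of 21 genes for sources of superoxide and peroxide, 15 were tested. In males 3 rose and 1 fell, beside 13.2% and 7.54% of all genes, with a median of -0.03. The NADPH oxidase organizer Noxo1 rose from 3.61 ± 0.841 to 8.40 ± 3.21 CPM (log2 fold change 1.21 ± 0.25, edgeR adjusted p = 0.00303), and the oxidase subunit Cyba from 26.9 ± 2.13 to 55.1 ± 26.1 CPM (1.03 ± 0.23, adjusted p = 0.00436; 0.34 and 0.321 with the ribosomal protein covariate). Xdh, xanthine dehydrogenase, rose from 11.7 ± 2.53 to 33.6 ± 26.7 CPM (1.52 ± 0.48, adjusted p = 0.0274), a call lost without male saline 2 or 6 or male cisplatin 1 or 2 (1.18 to 1.46, adjusted p = 0.0532 to 0.0797). Maoa, a mitochondrial monoamine oxidase, fell from 34.0 ± 4.52 to 24.4 ± 5.01 CPM (-0.48 ± 0.13, adjusted p = 0.0125). In females 0 of the 15 passed, beside 0.272% of all genes.

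Of 8 genes for selenium supply and selenocysteine insertion, on which the glutathione peroxidases shown above depend, 1 rose and 2 fell in males. Of all genes 13.2% rose and 7.54% fell. In females 0 of the 8 passed, beside 0.272% of all genes. Selenop, the selenium carrier of plasma, ranged from 103 to 192 CPM in male saline (median 160) and from 69.0 to 128 CPM in male cisplatin (median 79.4). It fell by 0.80 ± 0.20 on the log2 scale (edgeR adjusted p = 0.00793), opposite in sign to Gpx1 and Gpx4 in the same libraries. Sepsecs, which makes selenocysteine on its transfer RNA, fell by 0.27 ± 0.10 (adjusted p = 0.0447; kept in 3 of 12 fits with a male library left out, those without male saline 2 or male cisplatin 4 or 6), and Trnau1ap, a protein associated with that transfer RNA, rose by 0.67 ± 0.18 (adjusted p = 0.0132), a call lost with the ribosomal protein covariate (0.093, 0.747) and without 3 libraries of divergent composition (0.47, 0.0502). The elongation factor gene Eefsec did not pass (0.18 ± 0.12, adjusted p = 0.261).

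Of the genes of these 5 pathway lists that were selected by adjusted p, 17 passed in males. Txnrd1 and Glrx also passed, but lay outside that selection and are not among the 17. All 17 also passed with DESeq2. With the tubule marker covariate 11 passed, and Prdx4, Srxn1, Slc7a11, Mafg, Xdh and Sepsecs did not. With the ribosomal protein covariate 0 of the 17 passed, as for the members.

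Markers of several other cell types moved with the treatment. Beside the counts that follow, 13.2% of all tested genes were higher and 7.54% lower in males, and 0.272% passed in females. In bulk tissue, fewer cells of a type and less RNA per cell cannot be told apart. All 5 erythroid markers fell in both sexes, with summed levels of 149 to 380 CPM in male saline, 4.67 to 15.3 in male cisplatin, 97.5 to 391 in female saline and 5.90 to 13.9 in female cisplatin. Red cell precursors and reticulocytes are rich in catalase, Prdx2 and Gpx1, and the part of blood in the Cat difference was not tested. Of 15 markers of the proximal tubule, whose cells are also rich in catalase and Gpx3, 0 passed in either sex. Their median log2 fold change was nevertheless -0.49 in males and -0.51 in females, beside 0.02 and 0.0091 over all genes. Their sums were 158 to 987 CPM in male saline (median 439) and 109 to 1145 in male cisplatin (median 258). In females they were 183 to 667 CPM under saline (median 334) and 102 to 453 after cisplatin (median 166).

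When a tubule score (the mean of the scaled proximal tubule and thick ascending limb marker levels) entered as a covariate, 0 of 9 members passed in males: the log2 fold change of Cat was -0.17 (edgeR adjusted p = 0.0985), of Gpx1 0.50 (0.0518) and of Prdx1 0.38 (0.0635). Fibroblast markers fell in males for 5 of 7 genes (sums 519 to 637 CPM in saline and 105 to 457 in cisplatin) and endothelial markers for 4 of 6 (1857 to 2289 and 603 to 2267). These and the next counts stand beside 13.2% of all genes higher and 7.54% lower, and counts of 1 or 2 do not set a list apart. Urothelium markers were higher for 2 of 6 genes in males (483 to 604 CPM in saline and 530 to 1704 in cisplatin, with male cisplatin 5 the highest). Intercalated cell markers were lower for 2 of 6 (208 to 486 and 142 to 323), thick ascending limb markers for 1 of 6 (2588 to 13922 and 1634 to 8158) and thin limb markers for 1 of 5, while of 8 principal cell markers 1 was higher and 2 lower. Macrophage markers were mixed in males, with 2 of 10 higher and 2 lower (96.9 to 195 and 132 to 247 CPM). Neutrophil markers summed to at most 1.11 CPM in any library, and 0 of 5 were abundant enough to test. The part of urothelium, intercalated cells, fibroblasts, endothelium and macrophages in the members' results was not tested.

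How the members varied together was described from log2 CPM centred on the group means, over the 24 libraries, which share scaling and composition. Over the 36 pairs of members the correlation had a median of 0.26, and 22 pairs were positive. Gpx1 and Gpx3 were the most alike (r = 0.73, and 0.67 over the 23 libraries without male cisplatin 5), followed by Prdx1 and Prdx6 (0.71 and 0.47). Cat and Gpx1 were the most opposed (-0.58 and -0.60). These correlations pool the deviations of all groups, and none was calculated within a single group. Sod1 and Prdx1 went from 0.65 to 0.09 without male cisplatin 5.

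Among all tested genes, those most like Prdx1 were Rps15a (r = 0.97, and 0.94 without male cisplatin 5), Ctdnep1 (0.96 and 0.92) and Rpl5 (0.96 and 0.93), of which Rps15a and Rpl5 encode ribosomal proteins. Those most like Gpx1 were Krtcap2 (0.94 and 0.92), 1810058I24Rik (0.93 and 0.91) and Tfpt (0.92 and 0.89). Sod2 was closest to Mcrip2 (0.94 and 0.94), Mdh1 (0.92 and 0.92) and Ndufb10 (0.92 and 0.93), which encode a cytosolic malate dehydrogenase (Mdh1) and a subunit of respiratory complex I (Ndufb10). Sod3 was closest to Acmsd (0.85 and 0.83), Slc22a28 (0.85 and 0.82) and Cyp2j5 (0.84 and 0.81), and Cat to Gm6652 (0.87 and 0.88), Plagl1 (0.87 and 0.87) and Sord (0.86 and 0.88). The most like Gpx3 were Mgst2 (0.84 and 0.82), Snhg11 (0.84 and 0.83) and Ggt5 (0.83 and 0.79), and the most like Prdx6 were Taldo1 (0.91 and 0.84), Mrpl54 (0.91 and 0.84) and Mrpl58 (0.90 and 0.84). For Gpx2 they were Tnfsf9 (0.84 and 0.83), Cdh17 (0.83 and 0.83) and Nek5 (0.78 and 0.78). The likeness of Sod1 to Skp1a (0.94), Myl12a (0.94) and Selenok (0.93) rested on 1 library, since without male cisplatin 5 it was 0.69, 0.60 and 0.62.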

How the data were processed

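The authors deposited whole-number counts per gene and library under Ensembl identifiers, and these were the values analysed. Per the submitters' processing notes the tools were Trim Galore 0.6.7, Subread 2.0.1, featureCounts and DESeq2 1.28.1, with mm10, and no roles are given. No source used here gives the aligner, the strand setting, the annotation release or the treatment of reads that match near-identical copies. Symbols were found for 52083 of 55416 identifiers. Gene spans and coding sequences came from GENCODE M21 (GRCm38), promoters from RefSeq (GRCm38.p6).

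In R 4.3.3, edgeR 4.0.16 (filterByExpr, minimum count 10; TMM) fitted 1 mean per group by quasi-likelihood to all 24 libraries of 18084242 to 27279102 counts. Over the 18005 genes tested the common biological coefficient of variation was 0.251. A gene counted as changed with a Benjamini-Hochberg adjusted p under 0.05, and 95% intervals use the SE and the model's degrees of freedom. Levels are CPM with TMM-scaled totals. The fit was also run on simulated counts with known changes in male cisplatin alone. These held no shifts of library composition, and the outcome is not given here. Alternatives were DESeq2 1.42.0 and its size factors, no filter, a replicate block, fits of 2 groups, marker and ribosomal protein covariates, and libraries left out.

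The members, the lists and the rule for named genes (all members, their 3 most similar genes, and up to 4 genes of each pathway list by adjusted p) were chosen with earlier results of these data known.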

Additional observations from a re-analysis of the deposited data

Results flagged for a closer look

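Of 36 sets of values (9 genes in 4 groups), 3 (8.33%) held a library whose gap to the nearest other one was large for the range of its group; chance flags about 1 in 20. Sod1 stood at 842 CPM in male cisplatin 5, where the other 5 libraries of the group had 256 to 301 CPM. Gpx1 stood at 631 CPM in the same library, where the others had 274 to 406 CPM. Sod3 stood at 9.35 CPM in female saline 2, where the other 6 libraries had 20.5 to 25.6 CPM.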

How the results depend on the processing

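The count of changed members in males was 3 with DESeq2 and with its size factors in edgeR, and 2 with the replicate block, with the 2 male groups alone and without 3 libraries of divergent composition (male cisplatin 5, female saline 1 and 6). It was 1 with no filter on low counts, 0 with the tubule marker covariate, 0 with the ribosomal protein covariate (added after seeing the data), and 1 to 4 with each male library left out. In the other 4 contrasts it was 0 in every alternative run. The 3 libraries of divergent composition were named directly and not picked by a threshold. Male saline 2 was kept, with lower summed thick ascending limb markers (2588 CPM) than female saline 1 (2735 CPM). Same-numbered libraries were not alike as a whole: over 33 such pairs the correlation of deviations from the group means was -0.30 to 0.28 (median -0.01). A correlation over all genes cannot exclude a pairing that moved only few of them. The replicate block lost Prdx1 in males (edgeR adjusted p = 0.0644). With 2 groups fitted alone, Gpx2 in females and between saline groups and Slc7a11 in females were too low to test. Depth limits Gpx2, at 299 counts in all.

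Signs turned for the following log2 differences, and the cause was not tested. In males they were, with the ribosomal protein covariate, Sod1 (-0.32), Gpx3 (-0.12), Prdx1 (-0.0048) and Prdx6 (-0.062), and without the 3 libraries Sod1 (-0.12). In females they were, with the replicate block, Sod2 (-0.0012) and Keap1 (-0.0086); with the tubule covariate, Selenop (0.0021); without the 3 libraries, Sod2 (-0.042). With the ribosomal covariate they were Sod2 (-0.030), Prdx6 (-0.054), Gpx4 (-0.031), Prdx4 (-0.096), Ccs (-0.15), Gsr (-0.012), Cyba (-0.030), Selenop (0.083) and Sepsecs (0.061).

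For the female minus male effect they were Sod3 with the replicate block (0.068), Prdx1 (0.062) and Prdx6 (0.0088) with the ribosomal covariate, and Sod1 (0.11), Sod3 (0.13), Gpx1 (0.064) and Prdx1 (0.11) without the 3 libraries. For female against male saline, Gpx1 was at -0.00061 with no filter, -0.026 with the replicate block, -0.031 with the tubule covariate, -0.054 with the ribosomal covariate and -0.12 without the 3 libraries. Prdx1 was at -0.0058 with the replicate block, -0.039 with the ribosomal covariate and -0.017 without the 3 libraries. For female against male cisplatin, Prdx1 was at 0.023 with the ribosomal covariate and 0.094 without the 3 libraries, where Sod1 was at 0.11 and Sod2 at 0.0066.

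With each library left out, ranges that crossed 0 were, in males, Sod1 from -0.13 to 0.39, and in females, Sod2 from -0.037 to 0.056, Keap1 from -0.017 to 0.066 and Selenop from -0.24 to 0.016. For the female minus male effect they were Sod1 from -0.49 to 0.031, Sod3 from -0.24 to 0.090, Gpx2 from -0.75 to 0.085, Gpx3 from -0.054 to 0.37, Prdx1 from -0.19 to 0.087 and Prdx6 from -0.17 to 0.037. Between saline groups they were Gpx1 from -0.053 to 0.073, Gpx3 from -0.19 to 0.026 and Prdx1 from -0.016 to 0.034. Between cisplatin groups they were Sod1 from -0.39 to 0.12, Sod2 from -0.074 to 0.081, Sod3 from -0.15 to 0.18, Cat from -0.13 to 0.0045, Gpx3 from -0.14 to 0.29 and Prdx1 from -0.17 to 0.10. All of these had an adjusted p above 0.05 with all libraries, except Prdx1 in males. Group mean CPM with plain library totals stayed within 1 SD for all 36 means.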
